A study of Rattus norvegicus with 8 samples.

Results

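This report describes 10 genes of renal acid-base transport in rat kidney: Atp6v1b1, Atp6v0a4, Atp6v1g3, Slc4a1, Slc26a4, Foxi1, Rhcg and Rhbg of the collecting duct, and Slc4a4 and Slc9a3 of the proximal tubule. They were chosen by name, and their probes were found by matching the transcript accession of each probe to these symbols in RefSeq. A probe was matched for 9 of the 10, and Atp6v0a4, the a4 subunit of the proton pump, was not analysed here. All 9 passed the filter on dim probes, out of 21417 genes or unnamed transcripts tested in all, and were well above background on all 8 arrays. Kidney RNA of 10-week-old male SD rats was measured on 8 single-colour Agilent arrays, 1 array a sample. The 4 control samples had received 0.5% methylcellulose, a vehicle, for 4 weeks, and the 4 treated samples a compound labelled APL at 150 mg/kg for 4 weeks. The series title speaks of a fibrosis model made with allopurinol, a drug that blocks xanthine oxidase, and APL is taken to stand for it. The labels do not say that the samples of a group were separate animals, so the p-values measure the spread between these samples. The APL label names no vehicle.

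The kidney holds blood pH by reclaiming filtered bicarbonate in the proximal tubule and by secreting acid and ammonia in the collecting duct. In the proximal tubule the exchanger Slc9a3 moves protons into the lumen and the cotransporter Slc4a4 returns bicarbonate to the blood. In the collecting duct, intercalated cells carry a vacuolar proton pump (V-ATPase) built with kidney-restricted subunits: type A cells pair it with the chloride-bicarbonate exchanger Slc4a1, type B cells secrete bicarbonate through Slc26a4 (pendrin), and the transcription factor Foxi1 is needed for both.

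Levels are given as the processed spot signal divided by the array's own 75th percentile, a relative signal without a unit, so that 1 means a spot as bright as that percentile. That percentile was 291 ± 18 in control and 455 ± 53 in APL (SD, n = 4 each), a ratio of 1.56, and every fold change is relative to it. The median log2 fold change of all features shifted by 0.63 without scaling between arrays, by 0.39 with normexp background correction at the 75th percentile and by -0.28 with median scaling. The arrays lay on 2 slides, each with 2 control and 2 APL arrays, and values within each slide are given for the members. Of the defining markers of other kidney cell types, proximal tubule genes were lower with APL (12 of 15 tested lower and 2 higher, the summed relative signal 723 to 874 in control and 50.3 to 70.1 in APL), as were endothelial genes (7 of 9 lower, 0 higher) and genes of the thick limb and distal convoluted tubule (4 of 7 lower, 0 higher). Injured tubule genes (6 of 9 higher, 0 lower) and macrophage genes (5 of 8 higher, 0 lower) were higher. Lymphocyte genes gave no call in 6 tested, podocyte genes 2 higher and 1 lower of 7, and fibroblast genes 2 higher and 1 lower of 8. Of all features tested, 11.9% were called higher and 11.5% lower. Whole-tissue RNA cannot tell fewer cells of a type from less RNA per cell.

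None of the 9 acid-base genes differed between APL and control at an adjusted p under 0.05 in the main comparison, limma's moderated test with Benjamini-Hochberg adjustment over all 21417 features, of which 23.5% were called, 11.9% higher and 11.5% lower. At an unadjusted p under 0.05 there was 1 member, Slc4a4, against 37.1% of all features. On the probe used, the APL and control values overlapped for all 9 members, while 29.9% of all features had groups without overlap. The log2 fold changes ran from -1.25 for Slc9a3 to 2.12 for Foxi1, with a median of 0.70 over the 7 collecting duct members against -0.03 over all features. The proximal members lay on opposite sides of 0, Slc4a4 at 1.42 and Slc9a3 at -1.25.

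**Figure D1:**
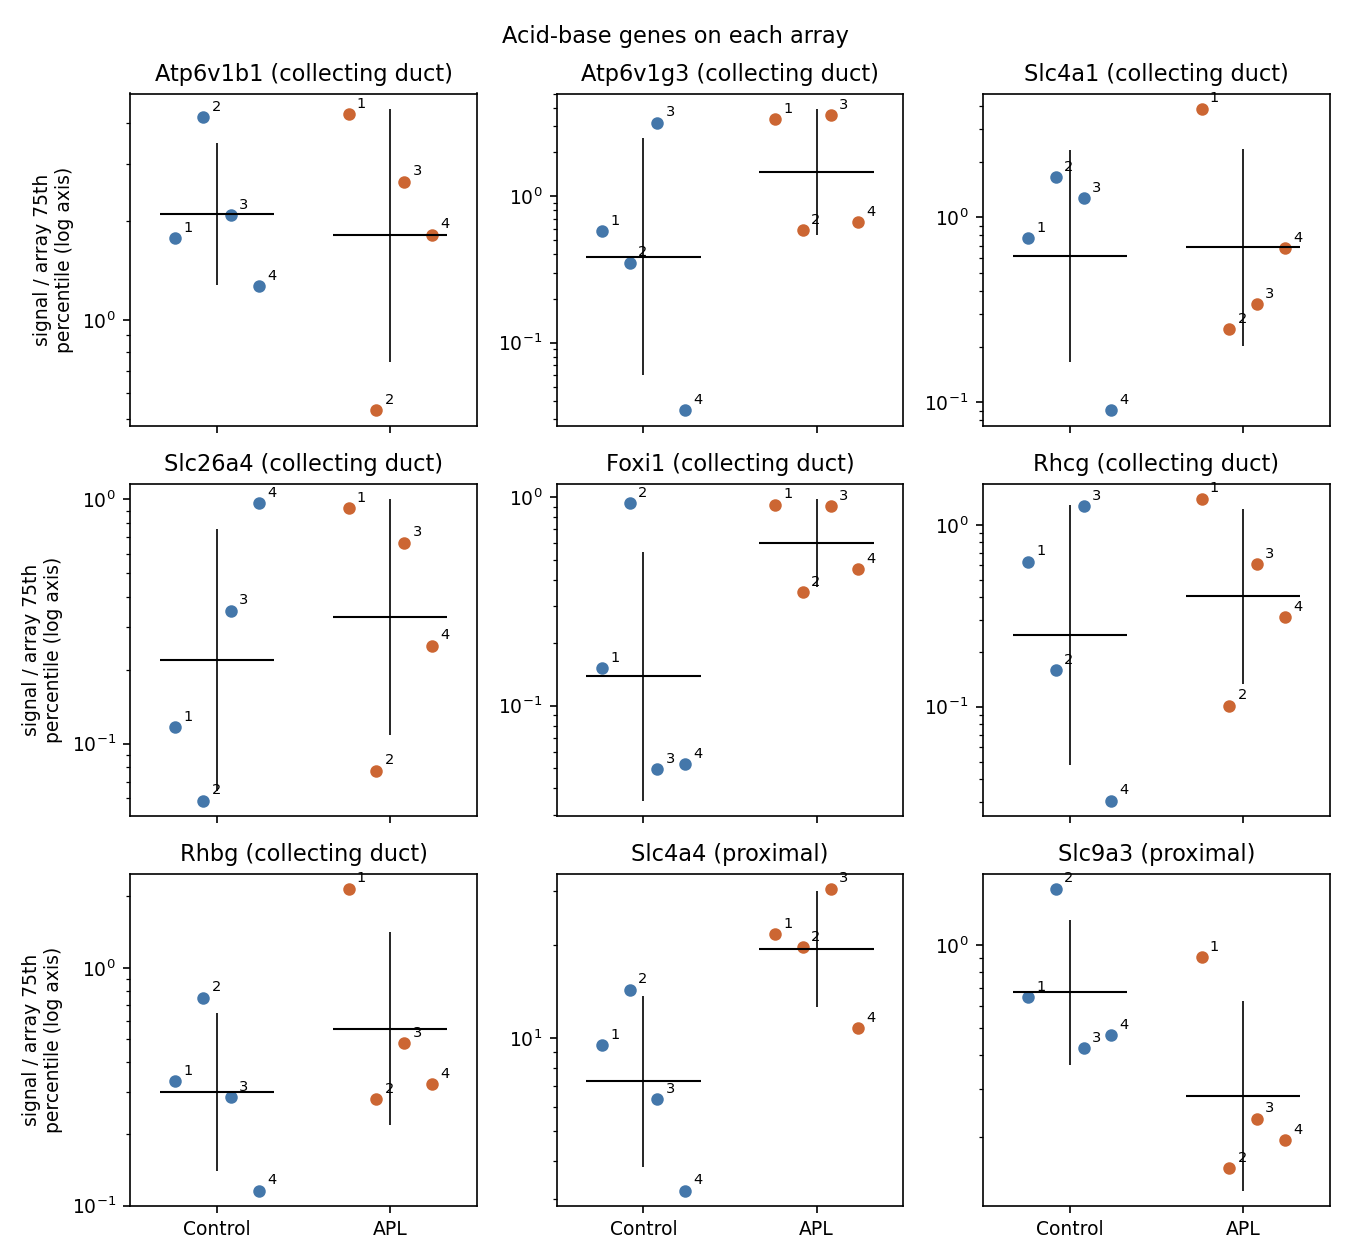
Relative signal (spot signal over the array's 75th percentile, log axes that differ between panels) of the 9 acid-base genes on the 4 control and 4 APL arrays, with replicate numbers, the mean of the log2 values (horizontal bar) and 1 SD (vertical bar). The groups overlap in every panel, and APL replicate 2 is the lowest APL array in all 7 collecting duct panels.

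Atp6v1b1 encodes the B1 subunit of the catalytic V1 sector of the proton pump, the form used by intercalated cells. Its relative signal was 1.77, 4.17, 2.09 and 1.27 in control replicates 1 to 4 and 4.24, 0.529, 2.64 and 1.82 in APL replicates 1 to 4. The highest APL array matched the highest control array, and the lowest value of all was an APL array. APL over control gave a log2 fold change of -0.22 ± 0.66 (moderated SE, n = 4 against 4, 95% interval -1.73 to 1.30, adjusted p = 0.835 by limma), and the slides differed in sign, at -0.86 and 0.43.

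Atp6v1g3 encodes the kidney-restricted G3 subunit of the pump's stalk. Its relative signal was 0.580, 0.352, 3.18 and 0.0344 in control replicates 1 to 4 and 3.36, 0.585, 3.57 and 0.662 in APL replicates 1 to 4. Control replicate 3 stood among the high APL arrays, and control replicate 4 was far below every other array. For this subunit the log2 fold change was 1.92 ± 1.33 (95% interval -1.14 to 4.99, limma adjusted p = 0.329), 1.63 on slide 1 and 2.21 on slide 2. It was 2.94 without control replicate 3 and 0.76 without control replicate 4, so these arrays set its size.

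Foxi1 proteins bind DNA through a forkhead domain, and the forkhead core TAAACA was searched on either strand of the 250 bases before the start of each member's gene in the RefSeq promoter table of build GRCr8, which held 9 of the 10 members. The core was found before Atp6v1b1 and Atp6v1g3, 2 of 9 members, and before 12.1% of all 33469 promoters in the table. The match starts 93 bases before the start of Atp6v1b1 (chr4:117781194-117781443, plus strand) and 234 and 221 bases before that of Atp6v1g3 (chr13:52362082-52362331, plus strand). A repeat of the core within 250 bases, which the plan did not name, was found in Atp6v1g3 and in 1.33% of all promoters. Both windows are shown 5′ to 3′ because they hold the core, so they were picked by the match. Their genes are also the V-ATPase members measured here. The core, read here on the opposite strand as TGTTTA, is in capitals.
Atp6v1b1: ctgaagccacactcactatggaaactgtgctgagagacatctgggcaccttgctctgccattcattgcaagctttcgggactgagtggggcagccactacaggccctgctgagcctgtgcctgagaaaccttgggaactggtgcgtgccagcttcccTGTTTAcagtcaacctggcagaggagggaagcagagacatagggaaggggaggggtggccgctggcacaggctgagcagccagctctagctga
Atp6v1g3: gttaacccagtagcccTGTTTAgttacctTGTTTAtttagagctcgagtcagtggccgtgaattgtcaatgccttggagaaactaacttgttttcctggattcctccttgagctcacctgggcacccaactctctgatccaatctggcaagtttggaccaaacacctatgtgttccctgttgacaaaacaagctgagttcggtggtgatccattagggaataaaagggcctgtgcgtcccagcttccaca
A match is a description of the letters and was not tested as a binding site. Neither gene was called.

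Foxi1, the transcription factor of intercalated cells, had a relative signal of 0.151, 0.935, 0.0495 and 0.0524 in control replicates 1 to 4 and of 0.921, 0.350, 0.902 and 0.451 in APL replicates 1 to 4. All APL arrays lay above 3 of the 4 control arrays, and control replicate 2 lay above them all. This gave a log2 fold change of 2.12 ± 0.92 (95% interval -0.01 to 4.25, limma adjusted p = 0.136), 0.60 on slide 1, which holds control replicate 2, and 3.65 on slide 2. Without control replicate 2 it was 3.04 and was called (limma adjusted p = 0.0101). A dimmer probe of Foxi1, well above background on 3 control arrays, gave 0.85 ± 0.87 (limma adjusted p = 0.512 over all probes), with relative signals of 0.0158 to 0.0896 in control and 0.0162 to 0.203 in APL.

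Slc4a1 encodes the chloride-bicarbonate exchanger AE1 of type A cells, which is also band 3 of red cells. Its relative signal was 0.772, 1.65, 1.27 and 0.0906 in control replicates 1 to 4 and 3.87, 0.249, 0.341 and 0.681 in APL replicates 1 to 4. The highest array was APL and the lowest was control. Its log2 fold change was 0.15 ± 1.13 (95% interval -2.46 to 2.77, limma adjusted p = 0.934), -0.20 and 0.51 on the slides, and it changed sign without control replicate 4 (-0.77) or without APL replicate 1 (-0.68). Of 11 erythroid markers tested, 3 were lower, 0 higher and 8 not called, with a summed relative signal of 4.30 to 8.74 in control and 1.62 to 3.91 in APL. Hbb, a beta globin, fell by 4.01 ± 0.71 on the log2 scale (limma adjusted p = 0.00588), and Hbb-bs, a near-identical beta globin whose RNA the probe of Hbb may also bind, fell by 3.59 ± 0.80 (limma adjusted p = 0.0157). Hba-a3, an alpha globin gene, fell by 1.82 ± 0.49 (limma adjusted p = 0.0326), a direction that flips to 0.03 with normexp background correction scaled by the 75th percentile. Among those not called, the hemoglobin chaperone Ahsp was at 3.35 ± 1.24 (limma adjusted p = 0.0883, 0.0164 to 0.0603 in control and 0.0206 to 1.81 in APL) and the glycophorin Gypc at 0.62 ± 0.997, both named after their values were seen. The red cell membrane genes Epb42 and Rhag were well above background on no array. The part of red cell RNA in the Slc4a1 values was not tested.

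Slc26a4 encodes pendrin, the chloride-bicarbonate exchanger of type B cells. Its relative signal was 0.117, 0.0585, 0.351 and 0.967 in control replicates 1 to 4 and 0.922, 0.0776, 0.664 and 0.252 in APL replicates 1 to 4. The groups covered almost the same range. The log2 fold change was 0.59 ± 1.05 (95% interval -1.82 to 3.01, limma adjusted p = 0.712), with opposite signs on the slides, 1.69 and -0.51. This probe was printed 10 times on each array, and the SD of its spots within an array was 0.0516 to 0.254 on the log2 scale, against an SD between arrays of a group of 1.69.

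Rhcg and Rhbg encode ammonia channels of the collecting duct, on the luminal and basolateral side and on the basolateral side alone. The relative signal of Rhcg was 0.628, 0.159, 1.27 and 0.0305 in control replicates 1 to 4 and 1.39, 0.101, 0.608 and 0.312 in APL replicates 1 to 4. Its log2 fold change was 0.70 ± 1.25 (95% interval -2.18 to 3.57, limma adjusted p = 0.715), 0.25 and 1.14 on the slides, and turned to -0.31 without control replicate 4. The relative signal of Rhbg was 0.333, 0.749, 0.286 and 0.116 in control replicates 1 to 4 and 2.15, 0.280, 0.483 and 0.324 in APL replicates 1 to 4. Both genes were highest on APL replicate 1 and lowest on control replicate 4. The log2 fold change of Rhbg was 0.88 ± 0.77 (95% interval -0.90 to 2.65, limma adjusted p = 0.441), 0.63 and 1.12 on the slides, and it was 0.22 without APL replicate 1.

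Slc4a4 encodes NBCe1, the cotransporter that carries bicarbonate out of the proximal cell toward the blood. Its relative signal was 9.47, 14.3, 6.35 and 3.21 in control replicates 1 to 4 and 21.7, 19.7, 30.4 and 10.8 in APL replicates 1 to 4. The groups overlapped through 1 array a side, control replicate 2 above APL replicate 4. The log2 fold change was 1.42 ± 0.51 (95% interval 0.25 to 2.58, limma adjusted p = 0.0794), 0.83 on slide 1 and 2.01 on slide 2. A further probe of the gene gave 1.42 ± 0.52 (limma adjusted p = 0.0888 over all probes) with groups that did not overlap, 1.60 to 8.93 in control and 9.27 to 15.1 in APL. The gene was called without control replicate 2 (1.75, limma adjusted p = 0.048) and without scaling between arrays (2.06, limma adjusted p = 0.0165).

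Slc9a3 encodes NHE3, the luminal sodium-proton exchanger. Its relative signal was 0.647, 1.60, 0.423 and 0.469 in control replicates 1 to 4 and 0.907, 0.155, 0.234 and 0.196 in APL replicates 1 to 4. APL replicates 2, 3 and 4 lay below every control array and APL replicate 1 lay above 3 of them. The log2 fold change was -1.25 ± 0.64 (95% interval -2.73 to 0.23, limma adjusted p = 0.197), -1.44 and -1.06 on the slides, and the gene was called without APL replicate 1 (-1.81, limma adjusted p = 0.0438). Its other, dimmer probe was called, at -2.04 ± 0.51 (limma adjusted p = 0.0252 over 24340 kept probes, of which 22.7% were called). On that probe the control arrays read 0.428, 0.716, 0.360 and 0.500 and the APL arrays 0.199, 0.0433, 0.115 and 0.196, without overlap. The probes thus shared a direction and differed in the call.

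**Figure D2:**
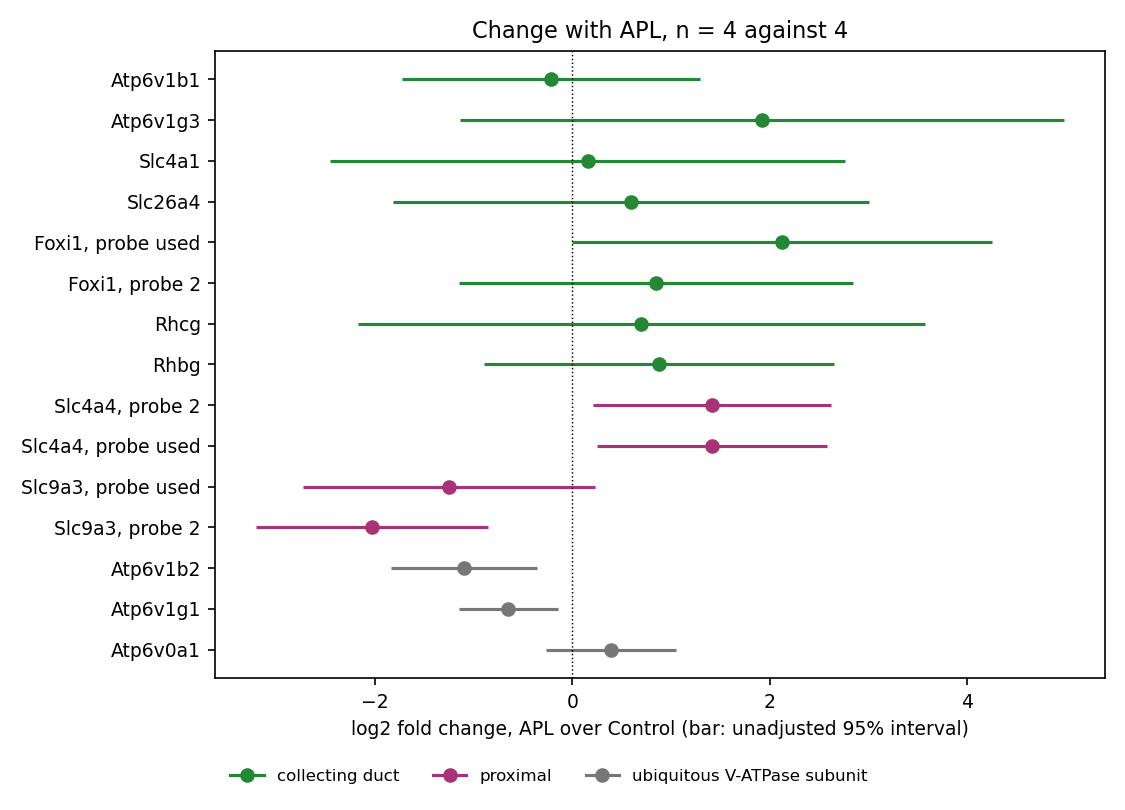
Log2 fold change of APL over control (x axis) with its unadjusted 95% interval for every probe of the 9 members and for 3 ubiquitous V-ATPase subunits, n = 4 against 4. The intervals of all collecting duct members include 0, those of Slc4a4 lie above 0, and that of the second Slc9a3 probe lies below it.

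Set against each other on the same arrays, the proximal members diverged. The log2 signal of Slc4a4 minus that of Slc9a3, a quantity whose absolute size depends on the probes and only its change is read, was 3.87, 3.16, 3.91 and 2.77 in control replicates 1 to 4 and 4.58, 6.99, 7.02 and 5.78 in APL replicates 1 to 4. Every APL array lay above every control array, with a mean difference of 2.67. This difference was not planned. It takes the member with a negative fold change from the one with a positive fold change. A rise in it thus follows from the fold changes above and is no further support for them. How many other gene pairs separate the groups was not counted. With the other probe of each gene the mean difference was 3.45, from 1.67 to 4.34 in control and from 5.56 to 8.30 in APL. Each of these other probes alone had groups without overlap, in opposite directions, so the lack of overlap in their difference was fixed in advance. Scaling cancels in this difference. The mean over the 7 collecting duct members, an unlike measure in which scaling does not cancel, did not separate the groups. The mean log2 deviation of these 7 members from their control means was 0.19, 0.54, 0.79 and -1.52 in control replicates 1 to 4. In APL replicates 1 to 4 it was 2.41, -0.61, 1.28 and 0.43. These are descriptions, and no p is given for a score over members.

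The collecting duct members varied widely between arrays of a group. The SD between arrays of a group, pooled over both groups on the log2 scale, had a median of 1.69 over the 7 collecting duct members, against 0.54 over all features and 0.45 over the 10139 features of the same level range that were well above background on every array. It ran from 1.04 for Atp6v1b1, which 79.8% of all features undercut, to 2.16 for Atp6v1g3, which 98.6% undercut. Among the control arrays the highest value of Atp6v1g3 was 92.3 times the lowest, that of Rhcg 41.6 times and that of Foxi1 18.9 times. The proximal members had SDs of 0.79 (Slc4a4) and 1.02 (Slc9a3). Principal cell markers had a median SD of 1.08, other intercalated cell markers 1.02 and proximal tubule markers 0.52.

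**Figure D3:**
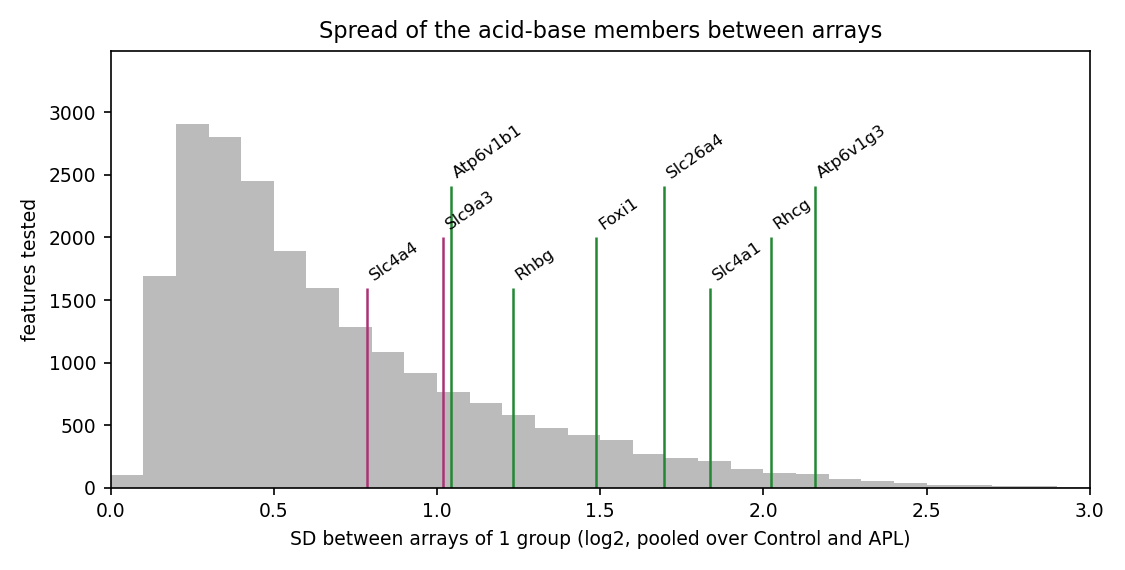
Number of tested features (y axis) by SD between arrays of a group (x axis, log2, pooled over control and APL), with the 7 collecting duct members in green and the 2 proximal members in purple. The members lie to the right of the bulk of features, from 0.79 for Slc4a4 to 2.16 for Atp6v1g3.

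The collecting duct members tended to be high and low on the same arrays. APL replicate 2 was the lowest APL array for 7 of 7 members, where it was the lowest for 15.4% of all features, and APL replicate 1 was the highest for 6 of 7, where it was the highest for 23.4%. Control replicate 4 was the lowest control array for 5 of 7, against 28.3% of all features, with Slc26a4, for which it was the highest, and Foxi1 as the exceptions. Principal cell markers, the water and sodium channel genes of the neighbouring cell type, were lowest on control replicate 4 for 6 of 12 genes and highest on APL replicate 1 for 6 of 12, and their mean deviations were 0.39, 0.52, 0.03 and -0.94 in control replicates 1 to 4 and 1.82, 0.63, 1.25 and 0.56 in APL replicates 1 to 4. APL replicate 2 was the lowest APL array for 4 of these 12 and APL replicate 4 for 5. The pattern was weaker in the other intercalated cell markers than in the 7 collecting duct members. Of these 19 genes, 9 were lowest on APL replicate 2, 7 were highest on APL replicate 1 and 8 on APL replicate 3. Control replicate 4 was the lowest control array for 9 of the 19. Control replicate 4 was also the lowest control array for 10 of 15 proximal tubule markers and for 6 of 13 ammonia production genes. The mean deviations of the proximal tubule markers were -0.04, 0.20, 0.32 and -0.48 in control replicates 1 to 4 and -3.14, -3.28, -2.87 and -3.17 in APL replicates 1 to 4. How much collecting duct each sample held was not tested.

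**Figure D4:**
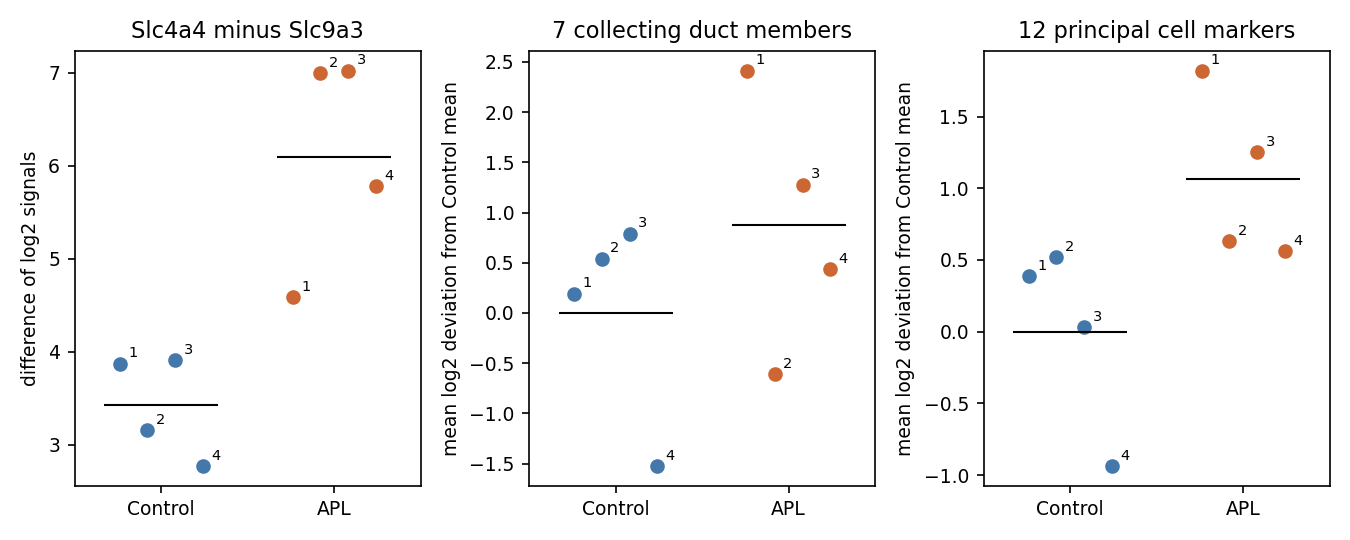
For each array, with replicate numbers: the log2 signal of Slc4a4 minus that of Slc9a3 (left), and the mean log2 deviation from the control mean over the 7 collecting duct members (middle) and over 12 principal cell markers (right). Horizontal bars are group means. The left panel separates the groups, at 2.77 to 3.91 in control and 4.58 to 7.02 in APL, and the middle panel does not.

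Of 25 other genes of intercalated cells listed, 19 were tested, 3 were higher and 1 lower, with a median log2 fold change of 0.92. Over all features 11.9% were called higher and 11.5% lower. Kit, a receptor tyrosine kinase found on intercalated and mast cells, rose by 2.64 ± 0.29 (limma adjusted p = 0.000602), from 0.106 to 0.260 in control to 0.950 to 1.22 in APL without overlap. Beside it, of 4 mast cell genes tested 2 were higher and 0 lower: Kit itself and the tryptase Tpsab1 (0.86 ± 0.25, limma adjusted p = 0.039). The mast cell genes Cpa3 and Ms4a2 were well above background on no array, and the summed relative signal of the 3 mast cell genes measured other than Kit overlapped between the groups, at 0.093 to 0.266 in control and 0.120 to 0.238 in APL. The part of mast cells in the Kit values was not tested. The transcription factor Hmx2 rose by 2.29 ± 0.67 (limma adjusted p = 0.0418), with overlapping groups. The third higher gene, Dmrt2, a transcription factor of type A cells, was at 4.05 ± 1.10 (limma adjusted p = 0.0331) and well above background on 1 control array, and it is named here after its value was seen. Car12, a carbonic anhydrase of the basolateral membrane, fell by 2.62 ± 0.31 (limma adjusted p = 0.000814), from 2.69 to 5.52 in control to 0.555 to 0.980 in APL. Among those not called were Aqp6, a channel of intracellular vesicles in type A cells (2.05 ± 1.27), Slc4a9, an exchanger of type B cells (1.21 ± 0.81), and Atp6v0d2, the d2 subunit of the pump (0.05 ± 0.49). Below 0 and not called were Adgrf5 (-1.58 ± 0.62), Avpr1a (-1.64 ± 0.93) and Jag1 (-0.25 ± 0.27), and the other uncalled genes of the list lay above 0. Insrr was well above background on no array. Principal cell markers gave 2 higher and 0 lower of 12, Aqp2, the vasopressin-regulated water channel, at 1.93 ± 0.48 (limma adjusted p = 0.025, 0.853 to 2.60 in control and 3.30 to 10.8 in APL) and Aqp4, a basolateral water channel, at 4.15 ± 0.87 (limma adjusted p = 0.0121, on 2 control arrays well above background).

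Most other subunits of the proton pump are present in every cell. Of 22 listed, 21 were tested, 4 were lower and 1 higher, where 11.5% of all features were called lower and 11.9% higher. The list had a median log2 fold change of -0.29 and a summed relative signal of 141 to 148 in control and 108 to 115 in APL. The d1 subunit Atp6v0d1 fell by 1.55 ± 0.30 (limma adjusted p = 0.00849), the proteolipid Atp6v0c fell by 1.18 ± 0.21 (limma adjusted p = 0.00551) and the e2 subunit Atp6v0e2 fell by 1.77 ± 0.51 (limma adjusted p = 0.0397). Tcirg1, the a3 subunit used in osteoclasts and macrophage lysosomes, rose by 1.62 ± 0.36 (limma adjusted p = 0.0157), from 0.886 to 2.99 in control to 4.33 to 5.64 in APL. Macrophage genes rose beside it (summed relative signal 4.62 to 11.6 in control and 20.9 to 26.5 in APL), and their part in the Tcirg1 values was not tested. The ubiquitous partners of the restricted subunits had standard errors of 0.22 to 0.32, against 0.66 for Atp6v1b1 and 1.33 for Atp6v1g3. Atp6v1b2, the partner of Atp6v1b1, fell by 1.10 ± 0.32 (limma adjusted p = 0.0419), Atp6v1g1, the partner of Atp6v1g3, was at -0.65 ± 0.22 (limma adjusted p = 0.0647), and Atp6v0a1, the partner of Atp6v0a4, was at 0.39 ± 0.28 (limma adjusted p = 0.352).

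Genes of renal ammonia production were lower with APL. Of 13 tested, 10 were lower and 1 higher, with a median log2 fold change of -2.17, where 11.5% of all features were called lower. Of the 13, 10 were lower without overlap of the groups, as were 15.9% of all features. Pck1, the gluconeogenic enzyme that uses the carbon skeleton of glutamine, fell by 6.54 ± 0.37 (limma adjusted p = 2.77e-05), from 6.13 to 17.0 in control to 0.0785 to 0.163 in APL. Slc38a3, the basolateral glutamine transporter, fell by 5.13 ± 0.75 (limma adjusted p = 0.00227), from 0.866 to 1.10 in control to 0.0082 to 0.110 in APL, with 3 APL arrays well above background. Slc1a1, a glutamate transporter, fell by 3.15 ± 0.30 (limma adjusted p = 0.000283). Many of these genes belong to the proximal tubule, whose marker list was lower beside them (12 of 15), and Hnf4a, a transcription factor, is on both lists. The part of the proximal tubule in these values was not tested.

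Carbonic anhydrases, which interconvert carbon dioxide and bicarbonate, gave 3 higher and 2 lower of 15 tested, with a median of -0.18, beside 23.5% of all features called either way. Car2, the main cytosolic enzyme of the kidney, was not called (0.10 ± 0.22, 95% interval -0.39 to 0.60), with 5.11 to 7.75 in control and 5.22 to 7.01 in APL. Car4, the membrane enzyme of the proximal brush border, was not called either (1.05 ± 0.64). The mitochondrial Car5b fell by 1.67 ± 0.26 (limma adjusted p = 0.00333). The cytosolic Car13 rose by 4.08 ± 1.08 (limma adjusted p = 0.0301), Car11, which lacks the enzyme activity, by 2.21 ± 0.58 (limma adjusted p = 0.0289), and Car3, named after its value was seen because only 1 control array was well above background, was at 4.49 ± 0.75 (limma adjusted p = 0.0043).

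Among other transporters and scaffolds of acid and bicarbonate, 4 of 26 tested were higher and 4 lower, with a median of -0.35, beside 23.5% of all features called either way. The scaffold Nherf1, which binds Slc9a3 at the brush border, fell by 2.03 ± 0.22 (limma adjusted p = 0.000605), from 42.3 to 53.1 in control to 8.36 to 14.9 in APL, and Pdzk1, a further scaffold of that membrane, fell by 1.64 ± 0.39 (limma adjusted p = 0.0196). The sulfate and oxalate exchanger Slc26a1 fell by 1.76 ± 0.30 (limma adjusted p = 0.00453). The relatives of Slc4a1 that rose were Slc4a2, the widely expressed exchanger (0.79 ± 0.23, limma adjusted p = 0.0403), Slc4a3 (2.53 ± 0.60, limma adjusted p = 0.0207) and Slc4a11 (3.58 ± 0.90, limma adjusted p = 0.0252, on 2 control arrays well above background). The bicarbonate transporter Slc4a10, the fourth lower gene, is named after its value was seen (-0.72 ± 0.18, limma adjusted p = 0.0252).

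**Figure D5:**
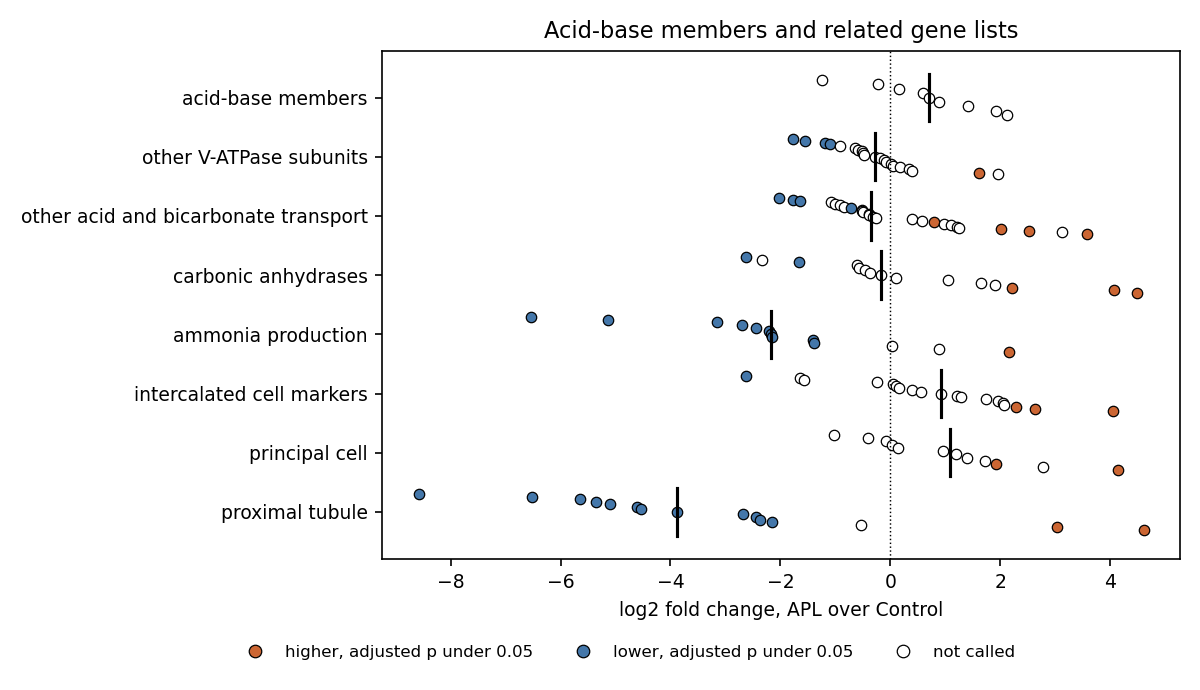
Log2 fold change of APL over control (x axis) for the 9 acid-base members and for the genes of 7 related lists (y axis). Points are genes, filled where the adjusted p was under 0.05, and bars are medians. No member is filled, 10 of 13 ammonia production genes and 12 of 15 proximal tubule markers are filled as lower.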

How the data were processed

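The submitters read 8 Cy3 arrays with Agilent Feature Extraction 10.5.1.1 (design 028282), per the file headers, and deposited linear intensity values: processed signals with background and spatial trend removed, and raw spot and background medians. The deposited series table holds the authors' log2 values, with no account of their making in these sources. Each probe's median in it is 0 within 4.8e-07 and column medians run from -0.136 to 0.0771. Set against the scanner values centred per probe, arrays correlated at 0.969 to 0.996 over 30268 probes, with the same direction. Its scaling is not stated. It served as an alternative, but its member fold changes nearly equalled those of the main comparison. Slc4a4 was at 1.419 against 1.418 and Slc9a3 at -1.249 against -1.250, so it is no independent check. Non-uniform spots were dropped, spots of a probe averaged (30367 probes), signals divided by the array's 75th percentile, raised to a floor of 0.005 and log2-transformed. Probes well above background on at least 4 of 8 arrays were kept (24340). Accessions were matched to RefSeq symbols of rat assembly GRCr8, naming 18643 probes and leaving 11724 unnamed here. The kept probe with the highest mean stands for its gene. Limma 3.58.1 (R 4.3.3) compared APL with control, called at an adjusted p under 0.05, tested on simulated data first. Errors after ± are moderated standard errors unless SD is named. The number of arrays limits precision. Alternatives changed background correction, scaling, floor, filter, probe choice, blocks, weights and arrays used. Members and lists were chosen with earlier results of these data known. Named are all members, 3 ubiquitous pump subunits, and of each pathway list the called genes with the 3 largest changes each way and at least 2 arrays of the dimmer group well above background; uncalled genes and those marked as named after their values were seen fall outside this rule, and marker lists of other segments are given mostly as counts. Promoters were searched over 250 bases before the start, not the planned 300, and the planned protein comparison was not made. Some genes of the pathway lists that the counts include are not reported here by name.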

Additional observations from a re-analysis of the deposited data

Results flagged for a closer look

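No member had an array standing apart from the others of its group by Dixon's test at the 95% level. Of 126 groups of 4 arrays tested over the members' probes and the named genes, 2 had such an array, and chance flags about 1 in 20. Slc22a6, the organic anion transporter of the proximal marker list, read 1.15 on APL replicate 3 against 0.447 to 0.478 on the other APL arrays. On the log2 scale this was a gap of 0.929 of the range. Tpsab1, the mast cell tryptase, read 0.129 on APL replicate 1 against 0.0814 to 0.0829, a gap of 0.960 of the range on the log2 scale.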

How the results depend on the processing

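The 9 members gave 0 calls in the main comparison and under every alternative that used all arrays except no scaling between arrays, which gave 1 higher (Slc4a4, 2.06). With 1 array left out, 0 to 2 members were called higher and 0 to 1 lower: Foxi1 ranged from 1.63 to 3.04, Slc4a4 from 1.03 to 1.75 and Slc9a3 from -1.81 to -0.83. The median of the collecting duct members ranged from 0.10 to 1.29 and that of the proximal members from -0.22 to 0.46. Over all 23 alternatives Atp6v1g3, Foxi1, Rhbg, Slc4a4 and Slc9a3 kept their sign; Atp6v1b1 and Slc4a1 each did in 18, Slc26a4 in 21 and Rhcg in 22. Of all features, 2557 were called higher and 2472 lower in the main comparison, 1609 to 2205 and 1777 to 2019 with 1 array left out, 1040 and 973 with normexp and the 75th percentile, 5882 and 1142 without scaling, 510 and 513 on slide 1 and 376 and 278 on slide 2, and 3849 lower with median scaling. Same-numbered samples did not deviate together (correlations -0.0152 to 0.0473), and with the replicate block 1644 were higher and 1616 lower. Beside 11.9% higher and 11.5% lower over all features, 12 of 88 pathway genes were higher and 20 lower. Left-out arrays gave 6 to 11 and 17 to 21. Higher calls were 4 with normexp and the 75th percentile, 7 with normexp and quantile normalization, 6 with probes well above background on all 8 arrays, and 1 on each slide. Lower calls were 13 without scaling, 7 on slide 1 and 1 on slide 2. Hba-a3 turned to 0.0304 with normexp and the 75th percentile. Of 49 called genes named, 48 kept their sign in all alternatives and 7 their call. The cause of these changes was not tested, and smaller fits hold fewer arrays.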
